A study of Homo sapiens with 12 samples.

Results

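SPARC, a secreted collagen-binding glycoprotein also known as osteonectin, and 9 other genes (OLFML2B, NYNRIN, TMEM132A, PPP1R13L, TCEAL9, FRMD4A, LMO4, C11orf45 and LINC01140) were followed in MV4-11, an established line of human acute myeloid leukaemia cells. The 10 genes, of 58051 in the deposited count table, had been picked for a rise with YKL-06-102 that palbociclib did not give. The choice thus used the YKL-06-102, palbociclib and DMSO libraries, and the contrasts among those groups are given here as descriptions with no p. Each gene was found by its Ensembl identifier, named from GENCODE 29. Polyadenylated RNA had been sequenced after 6 h with 200 nM YKL-06-102, 200 nM BSJ-03-123, 200 nM palbociclib or the vehicle, 0.1% DMSO, with 3 libraries in each of the 4 groups. Palbociclib blocks the activity of the cell cycle kinases CDK4 and CDK6, while YKL-06-102 and BSJ-03-123 are conjugates that the labels give as specific for CDK6. All 4 groups are the same unmodified line, and the labels do not say whether the 3 libraries of a group came from separate cultures. The p-values therefore rest on a library-to-library spread that may be technical only. In RNA from a whole culture, more cells with a transcript and more transcript per cell cannot be told apart.

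The 10 genes belong to different families. SPARC is a matricellular protein, which is secreted and binds matrix and growth factors without building the matrix itself, and it is best known from stroma, bone, endothelium and platelets. OLFML2B is a secreted protein with an olfactomedin domain. TMEM132A is a transmembrane protein. FRMD4A is a scaffold with a FERM domain that links cytohesins to the PAR polarity complex at the cell cortex. PPP1R13L encodes iASPP, the inhibitory member of the ASPP protein family. LMO4 is a LIM-only transcriptional cofactor that works with LDB1. TCEAL9 belongs to the TCEAL and BEX family on the X chromosome. NYNRIN carries a NYN domain together with a sequence derived from a retroviral integrase. LINC01140 is annotated as a long intergenic non-coding RNA, and no role is given here for C11orf45.

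The 250 bases upstream of 4 RefSeq start sites (GRCh38.p14) are printed because SPARC had the largest fold change, OLFML2B is the other secreted protein, and LMO4 and LINC01140 are neighbours on chromosome 1 whose fold changes with BSJ-03-123 had opposite signs. Each runs 5′ to 3′ on the strand of the gene and ends at the base before the start. They cover chr5:151686916-151687165 on the minus strand for SPARC, chr1:162023870-162024119 on the minus strand for OLFML2B, chr1:87328630-87328879 on the plus strand for LMO4 and chr1:87129515-87129764 on the plus strand for LINC01140. Capitals mark matches to the GGA box (GGAGGA), to a core that PU.1 and other ETS factors bind (GAGGAA) or to the Ikaros core (TGGGAA), on either strand.
SPARC: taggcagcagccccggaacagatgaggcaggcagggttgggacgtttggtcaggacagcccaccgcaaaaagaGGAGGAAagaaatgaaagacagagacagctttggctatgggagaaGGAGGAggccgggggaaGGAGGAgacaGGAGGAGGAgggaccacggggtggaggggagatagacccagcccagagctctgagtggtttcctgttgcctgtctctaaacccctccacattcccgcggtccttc
OLFML2B: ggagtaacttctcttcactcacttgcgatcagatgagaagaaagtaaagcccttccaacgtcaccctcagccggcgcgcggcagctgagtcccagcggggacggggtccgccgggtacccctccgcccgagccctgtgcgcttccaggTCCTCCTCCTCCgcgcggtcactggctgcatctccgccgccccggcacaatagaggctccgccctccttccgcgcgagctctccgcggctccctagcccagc
LMO4, first start: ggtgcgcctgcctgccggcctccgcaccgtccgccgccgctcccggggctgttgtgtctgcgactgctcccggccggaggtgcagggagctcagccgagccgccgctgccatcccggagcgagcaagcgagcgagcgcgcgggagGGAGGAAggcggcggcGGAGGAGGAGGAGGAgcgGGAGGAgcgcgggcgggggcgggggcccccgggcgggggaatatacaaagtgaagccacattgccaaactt
LINC01140, first start: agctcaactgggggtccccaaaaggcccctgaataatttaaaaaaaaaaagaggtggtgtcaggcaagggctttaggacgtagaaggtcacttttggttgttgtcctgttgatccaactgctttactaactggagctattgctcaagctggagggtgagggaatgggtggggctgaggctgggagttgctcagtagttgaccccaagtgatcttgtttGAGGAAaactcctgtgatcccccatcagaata

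RefSeq promoters, from 250 bases before to 50 bases after a start, were found for 8 of the 10 genes and gave 12 starts. The GGA box, searched on both strands as were all motifs, was present in 9 of these 12 windows (75%), against 36.6% of all 35116 promoters and 40.2% of the promoters of tested genes. SPARC had 5 matches, the first LMO4 start 6 and OLFML2B 3. The ETS core was present in 7 of 12 windows (58.3%), against 27.9% of all promoters. It overlaps the GGA box wherever the letters GGAGGAA occur, as upstream of SPARC, LMO4 and FRMD4A and just after a PPP1R13L start, so the counts for these 2 motifs are not independent. The Ikaros core was present in 1 window (8.33%), against 24% of all promoters, and the E2F core (GCGGGA) in 5 (41.7%), against 26.9% of all promoters and 39.5% of those of tested genes. The CCAAT box (CCAAT) was present in 2 windows (16.7%), against 34.6% of all promoters. The RUNX motif (TGTGGT), the E-box (CACGTG) and the TATA box (TATAAA) were each present in 1 window (8.33%), against 13.1%, 7.26% and 11.5% of all promoters, and the AP-1 motif (TGANTCA) and the CRE (TGACGTCA) in none, against 7.71% and 1.85%. The windows printed above hold 59.2% G and C for SPARC, 67.6% for OLFML2B, 74.4% for LMO4 and 48.4% for LINC01140, beside a median of 64.4% over tested genes. A match is a run of letters and shows no binding, and some starts belong to the same gene.

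Of the 58051 genes, 14214 passed the filter on low counts and were tested. Library totals ran from 18764307 to 25539858 counts. Replicate pairs differed by more than sampling noise, with a chi-square per degree of freedom of 1.72 to 2.95, except for DMSO replicate 2, which gave 5.89 and 8.93 against the other DMSO libraries. For some genes and lists, results against DMSO are therefore also given without it. All 10 markers of the line and its myeloid origin (such as CD33, FLT3, SPI1 and LYZ) were tested. Their summed level was 2377 to 2402 CPM (counts scaled to library size) in YKL-06-102 libraries, 2113 to 2148 in BSJ-03-123, 2132 to 2189 in palbociclib and 1953 to 2014 in DMSO libraries. The markers did not move together. The largest rises in mean CPM were of LYZ (840 with YKL-06-102, 657 with DMSO), SPI1 (437 and 315) and CSF1R (143 and 62.9). CD33, MEIS1 and MPO were also higher with YKL-06-102, whereas PTPRC (76.4 and 90.8) was lower (edgeR adjusted p = 3.09e-05). FLT3, KMT2A and HOXA9 had log2 fold changes of -0.026, -0.11 and -0.049 (edgeR adjusted p = 0.563, 0.0769 and 0.402). The part of the marker levels in the values of the 10 genes was not tested. Markers of other cell types, some of which make SPARC, were summed in the same way. The 10 stromal markers summed to 0.98 to 1.72 CPM in YKL-06-102 libraries, 0.801 to 1.70 in BSJ-03-123, 1.06 to 1.59 in palbociclib and 1.05 to 1.41 in DMSO libraries, with COL3A1 and DCN at 0 counts throughout. The 5 endothelial markers summed to 0.288 to 0.573 CPM with YKL-06-102, 0.251 to 0.518 with BSJ-03-123, 0.177 to 0.446 with palbociclib and 0.163 to 0.322 with DMSO, and KDR, TEK and EMCN were at 0 counts throughout. The 6 megakaryocyte markers summed to 12.8 to 14.5 CPM with YKL-06-102, 12.4 to 13.8 with BSJ-03-123, 12.8 to 14.3 with palbociclib and 11.5 to 13.3 with DMSO, nearly all of it ITGA2B, which averaged 13.1 CPM with YKL-06-102 and 11.9 CPM with DMSO, and PF4 and PPBP were at 0 counts throughout. The 5 epithelial markers summed to 16.2 to 22.1 CPM over the 12 libraries, with EPCAM and KRT19 at 0 counts, and the 5 lymphoid markers to 0.976 to 1.75 CPM, with MS4A1 at 0 counts. The part of these cell types in the values of the 10 genes was not tested.

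With YKL-06-102 all 10 genes lay above DMSO, with no overlap between the libraries of the 2 groups, as they did above BSJ-03-123 and above palbociclib. The gaps to DMSO and palbociclib follow from the choice of the genes, and the gap to BSJ-03-123 rests on the same YKL-06-102 libraries, which the choice had used. Of all tested genes, 19.5% had every YKL-06-102 library above every DMSO library, and 20.1% had every YKL-06-102 library above every palbociclib library. The median log2 fold change of the 10 against DMSO was 2.28, beside -0.017 over all tested genes. Of the 14214 tested genes, 37 (0.26%) were at least 4-fold and significantly higher with YKL-06-102, a fold that 9 of the 10 genes passed and LMO4 did not. Ranked by fold change, SPARC stood 5th, NYNRIN 10th, C11orf45 11th, TMEM132A 12th, OLFML2B 20th, LINC01140 22nd, TCEAL9 23rd, PPP1R13L 25th, FRMD4A 30th and LMO4 427th. All 10 passed the filter. When the filter was rerun without the YKL-06-102 libraries, SPARC, NYNRIN, TMEM132A and C11orf45 failed it, among 285 of the 14214 genes, and the other 6 passed. C11orf45 reached the cutoff of the full filter, 0.46 CPM, in 3 libraries of other groups, so its failure rests on the rerun.

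**Figure D1:**
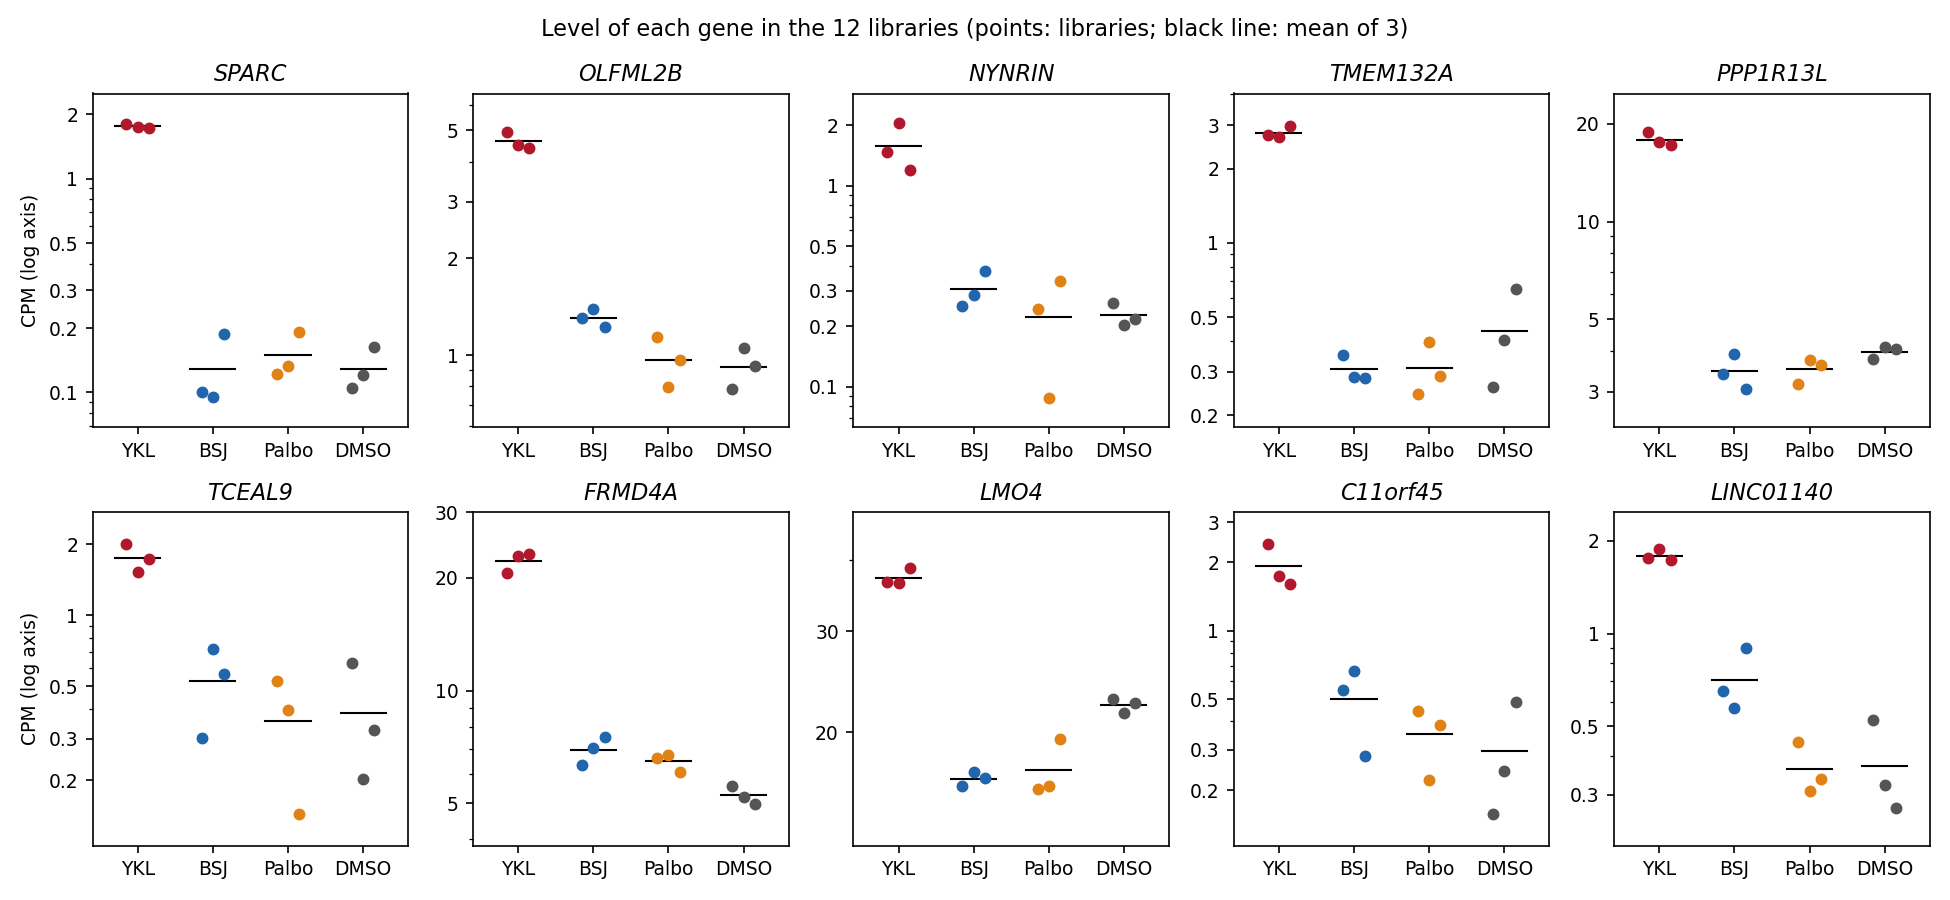
CPM on a log axis (each panel has its own range) for the 10 genes in every library, with YKL-06-102 (YKL), BSJ-03-123 (BSJ), palbociclib (Palbo) and DMSO from left to right; points are libraries and the black line is the mean of 3. The YKL-06-102 points lie above all others in every panel, from 1.73 to 1.80 CPM for SPARC and from 36.4 to 38.6 CPM for LMO4, and LMO4 is lower with BSJ-03-123 and palbociclib than with DMSO.

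Of the 2 secreted proteins, SPARC was close to undetected outside the YKL-06-102 group. It had 44, 41 and 42 raw counts in the YKL-06-102 libraries, 2, 2 and 4 in BSJ-03-123, 3, 3 and 4 in palbociclib and 2, 3 and 3 in DMSO libraries. As levels these were 1.80, 1.75 and 1.73 CPM with YKL-06-102, 0.100, 0.0956 and 0.189 with BSJ-03-123, 0.122, 0.132 and 0.193 with palbociclib and 0.105, 0.121 and 0.163 with DMSO. The YKL-06-102 libraries stood clear of the other 9, and the BSJ-03-123, palbociclib and DMSO libraries overlapped. The log2 fold change of YKL-06-102 against DMSO was 3.72 ± 0.47 (SE), and 3.69 without DMSO replicate 2. The summed counts, 127 with YKL-06-102 and 8 with DMSO, gave a normalized ratio of 13.7, with an exact binomial 95% interval of 6.75 to 32.5. This interval covers counting error only, since the counts were pooled over the libraries of each group. The reads carried no molecular identifiers, so repeated copies of a molecule are not covered either. As the gene was chosen from these groups, the interval is a description. The gene spans chr5:151661096-151687165 on the minus strand.

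OLFML2B had 4.95, 4.52 and 4.40 CPM with YKL-06-102, 1.30, 1.39 and 1.23 with BSJ-03-123, 1.14, 0.794 and 0.963 with palbociclib and 0.785, 1.05 and 0.922 with DMSO. The BSJ-03-123 libraries lay above all palbociclib and DMSO libraries, and the last 2 groups overlapped. Its log2 fold change of YKL-06-102 against DMSO was 2.31 ± 0.20 (SE), and 2.45 without DMSO replicate 2. OLFML2B spans chr1:161983192-162023854 on the minus strand.

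TMEM132A, the transmembrane protein, had 2.74, 2.69 and 2.96 CPM with YKL-06-102, 0.351, 0.287 and 0.283 with BSJ-03-123, 0.244, 0.397 and 0.289 with palbociclib and 0.262, 0.403 and 0.651 with DMSO. Outside the YKL-06-102 group the libraries overlapped, and DMSO replicate 3 was the highest of them. The log2 fold change of YKL-06-102 against DMSO was 2.68 ± 0.29 (SE), and 2.63 without DMSO replicate 2. TMEM132A spans chr11:60924463-60937159 on the plus strand.

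FRMD4A, the cortical scaffold, had 20.6, 22.8 and 23.2 CPM with YKL-06-102, 6.31, 7.03 and 7.49 with BSJ-03-123, 6.62, 6.71 and 6.07 with palbociclib and 5.54, 5.20 and 4.99 with DMSO. All libraries of each compound lay above all DMSO libraries, so for this gene palbociclib also gave a higher level, at a log2 fold change of 0.30 ± 0.11 (SE) against DMSO. The log2 fold change was 2.08 ± 0.091 (SE) for YKL-06-102 against DMSO and 1.78 ± 0.083 (SE) for YKL-06-102 against palbociclib. FRMD4A spans chr10:13643706-14462142 on the minus strand.

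PPP1R13L, which encodes iASPP, had 18.9, 17.6 and 17.2 CPM with YKL-06-102, 3.41, 3.92 and 3.06 with BSJ-03-123, 3.17, 3.75 and 3.61 with palbociclib and 3.77, 4.11 and 4.07 with DMSO. The palbociclib libraries lay just below the DMSO libraries, and the BSJ-03-123 libraries overlapped both. The log2 fold change of YKL-06-102 against DMSO was 2.16 ± 0.10 (SE), from sums of 1290 counts with YKL-06-102 and 249 with DMSO. PPP1R13L spans chr19:45379634-45406349 on the minus strand.

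LMO4, the LIM-only cofactor, changed the least of the 10 genes. It had 36.5, 36.4 and 38.6 CPM with YKL-06-102, 16.1, 17.0 and 16.6 with BSJ-03-123, 15.9, 16.1 and 19.5 with palbociclib and 22.9, 21.6 and 22.4 with DMSO. The YKL-06-102 libraries lay above DMSO, and the BSJ-03-123 and palbociclib libraries lay below DMSO, with no overlap on either side. The log2 fold change was 0.74 ± 0.060 (SE) for YKL-06-102 against DMSO and -0.38 ± 0.068 (SE) for palbociclib against DMSO. LMO4 spans chr1:87328468-87348923 on the plus strand.

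TCEAL9, of the TCEAL and BEX family, had 2.0, 1.53 and 1.73 CPM with YKL-06-102, 0.301, 0.717 and 0.566 with BSJ-03-123, 0.528, 0.397 and 0.144 with palbociclib and 0.628, 0.202 and 0.325 with DMSO. The groups other than YKL-06-102 overlapped widely, with 3 to 15 raw counts in a library. Its log2 fold change of YKL-06-102 against DMSO was 2.23 ± 0.38 (SE), and ran from 1.88 to 2.76 over 13 alternative fits. Its locus is chrX:103356489-103358462 on the plus strand.

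NYNRIN, the gene with the NYN domain, had 1.47, 2.05 and 1.19 CPM with YKL-06-102, 0.251, 0.287 and 0.377 with BSJ-03-123, 0.244, 0.0883 and 0.337 with palbociclib and 0.262, 0.202 and 0.217 with DMSO. It had the widest spread among YKL-06-102 libraries of the 10 genes, a coefficient of variation of 27.7%, against 2.11% for SPARC. The SPARC value is below the counting error of its 44, 41 and 42 counts, so it does not measure precision. Its log2 fold change of YKL-06-102 against DMSO was 2.77 ± 0.43 (SE). NYNRIN spans chr14:24398786-24419288 on the plus strand.

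C11orf45 had 2.41, 1.75 and 1.60 CPM with YKL-06-102, 0.551, 0.669 and 0.283 with BSJ-03-123, 0.446, 0.221 and 0.385 with palbociclib and 0.157, 0.242 and 0.488 with DMSO, where the last 3 groups overlapped. Its log2 fold change of YKL-06-102 against DMSO was 2.71 ± 0.40 (SE), and the gene lies at chr11:128899565-128906035 on the minus strand. LINC01140, the non-coding RNA, had 1.76, 1.88 and 1.73 CPM with YKL-06-102, 0.652, 0.574 and 0.895 with BSJ-03-123, 0.446, 0.309 and 0.337 with palbociclib and 0.523, 0.322 and 0.271 with DMSO. Its BSJ-03-123 libraries lay between the YKL-06-102 libraries and all others, and palbociclib and DMSO libraries overlapped. The log2 fold change of YKL-06-102 against DMSO was 2.26 ± 0.32 (SE), and the gene lies at chr1:87129765-87169198 on the plus strand.

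Per kilobase of annotated exon, the level with YKL-06-102 was highest for LMO4, at 6.37 ± 0.211 CPM per kb (SD, n = 3), followed by PPP1R13L at 3.55 ± 0.177, FRMD4A at 1.52 ± 0.0948 and OLFML2B at 1.35 ± 0.0845. SPARC reached 0.364 ± 0.00770 CPM per kb with YKL-06-102, against 0.0268 ± 0.00620 with DMSO, and NYNRIN was the lowest with YKL-06-102, at 0.197 ± 0.0547. With DMSO the order of the first 4 was the same, at 3.83 ± 0.106 for LMO4, 0.791 ± 0.0374 for PPP1R13L, 0.358 ± 0.0191 for FRMD4A and 0.269 ± 0.0386 for OLFML2B, and SPARC was the lowest.

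The choice of the genes had not used the BSJ-03-123 libraries, so BSJ-03-123 against DMSO and against palbociclib could be tested. The DMSO and palbociclib libraries had been used, however. A rise with YKL-06-102 favours genes low by chance in DMSO. The lack of a rise with palbociclib favours genes low by chance in palbociclib or high in DMSO. The choice thus shifts the difference from palbociclib upwards and that from DMSO in a direction that is not settled. The p-values are therefore not independent of the choice. In BSJ-03-123 against DMSO, FRMD4A and LINC01140 were called higher, LMO4 was called lower, and 7 of the 10 genes were not called, at a Benjamini-Hochberg adjusted p under 0.05 from edgeR's quasi-likelihood test over all tested genes. Among all tested genes 12.4% were called higher, 15.7% lower and 28.1% in either direction, so a count of 3 among 10 is near the background. The 10 include SPARC, NYNRIN, TMEM132A and C11orf45, which failed the filter when it was rerun without the YKL-06-102 libraries. With few counts in BSJ-03-123 and DMSO libraries, these 4 could be called only at a large change. No conclusion is drawn from the count of 3. The 3 called genes were among the 6 that would have passed the filter without the YKL-06-102 libraries. FRMD4A rose by a log2 fold change of 0.41 ± 0.11 (SE, edgeR adjusted p = 0.00416), with all 3 BSJ-03-123 libraries above all 3 DMSO libraries. Without DMSO replicate 2 its log2 fold change was 0.40 (edgeR adjusted p = 0.0132). LMO4 fell, at a log2 fold change of -0.42 ± 0.070 (SE, edgeR adjusted p = 2.26e-05), or 16.6 ± 0.443 CPM with BSJ-03-123 and 22.3 ± 0.615 CPM with DMSO (SD, n = 3 each). Without DMSO replicate 2 the LMO4 value was -0.45 (edgeR adjusted p = 8.43e-06).

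LINC01140 had 0.707 ± 0.168 CPM with BSJ-03-123 and 0.372 ± 0.133 CPM with DMSO (SD, n = 3 each), a log2 fold change of 0.93 ± 0.36 (SE, edgeR adjusted p = 0.0431) from sums of 44 and 23 counts. The call was lost without DMSO replicate 2 (0.82, edgeR adjusted p = 0.144), without DMSO replicate 3 (0.77, adjusted p = 0.141), without BSJ-03-123 replicate 1 (0.98, adjusted p = 0.0633) and without BSJ-03-123 replicate 3 (0.72, adjusted p = 0.213). Over 12 alternatives the adjusted p ran from 0.0273 to 0.213. Of the genes not called, OLFML2B had a log2 fold change of 0.49 ± 0.23 (SE, edgeR adjusted p = 0.127) with all BSJ-03-123 libraries above all DMSO libraries. The other 6 ran from -0.49 for TMEM132A to 0.78 for C11orf45, with edgeR adjusted p-values of 0.224 to 0.997. Of these, 4 (SPARC, NYNRIN, TMEM132A and C11orf45) were the genes that failed the filter rerun without the YKL-06-102 libraries. For SPARC the value was 0.0059 with a 95% interval of -1.32 to 1.33, so with 8 counts in each group changes within that range are not excluded. The libraries of 3 genes lay all above and of 1 gene all below DMSO, beside 17.8% and 19.4% of all tested genes.

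**Figure D2:**
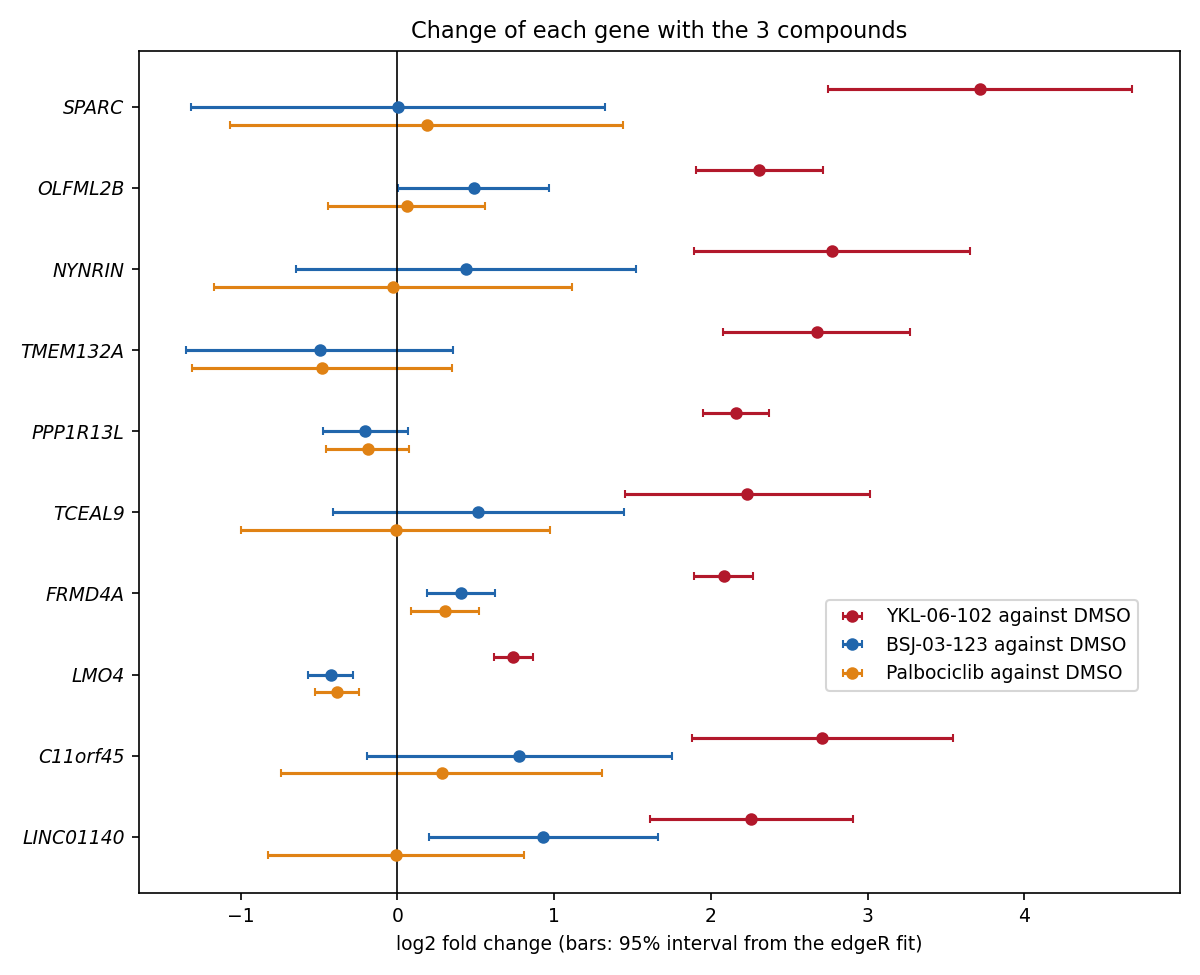
Log2 fold change of the 10 genes for YKL-06-102, BSJ-03-123 and palbociclib, each against the same 3 DMSO libraries; points are edgeR estimates and bars 95% intervals. YKL-06-102 values run from 0.74 for LMO4 to 3.72 for SPARC, and LMO4 lies left of 0 for the other 2 compounds, at -0.42 for BSJ-03-123 and -0.38 for palbociclib.

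Against palbociclib, 0 of the 10 genes were called with BSJ-03-123 by edgeR, by DESeq2, which gave no adjusted p for 7 of them, and by limma-voom. Across all tested genes 22 (0.155%) were called by edgeR, all higher, a count that ran from 3 without palbociclib replicate 1 to 75 (14 of them lower) in the fit of these 2 groups only. LINC01140 was the only gene of the 10 with an unadjusted edgeR p under 0.05. It had a log2 fold change of 0.94 ± 0.35 (SE, edgeR adjusted p = 0.377), and its 3 BSJ-03-123 libraries lay above all 3 palbociclib libraries. OLFML2B also had all BSJ-03-123 libraries above palbociclib, at 0.43 ± 0.23 (SE, edgeR adjusted p = 0.633), beside 8.01% of all tested genes. For LMO4 the difference was -0.041, with a 95% interval of -0.19 to 0.11, and for PPP1R13L -0.015, with an interval of -0.29 to 0.26. For FRMD4A it was 0.10, with an interval of -0.10 to 0.31. The intervals of the weakly counted genes were wider, at -1.44 to 1.07 for SPARC.

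For palbociclib against DMSO, the libraries of FRMD4A lay all above DMSO and those of LMO4 and PPP1R13L all below, beside 20.7% and 21.1% of all tested genes, and those of the other 7 genes overlapped. The values for PPP1R13L were 3.51 ± 0.306 CPM with palbociclib and 3.98 ± 0.188 CPM with DMSO (SD, n = 3 each), a log2 fold change of -0.19 with a 95% interval of -0.45 to 0.075. The median of the 10 was -0.0088, beside 0.014 over all tested genes. These 3 comparisons against DMSO share the DMSO libraries.

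The 2 CDK6 conjugates, given at the same dose and for the same time, differed in the level of all 10 genes. The choice had used the YKL-06-102 libraries but not those of BSJ-03-123, so these differences are a description with no p. In YKL-06-102 against BSJ-03-123 the log2 fold change was 3.71 for SPARC (95% interval 2.74 to 4.68), 3.17 for TMEM132A, 2.37 for PPP1R13L and 2.33 for NYNRIN. It was 1.93 for C11orf45, 1.82 for OLFML2B, 1.72 for TCEAL9, 1.67 for FRMD4A, 1.33 for LINC01140 and 1.16 for LMO4 (95% interval 1.03 to 1.29). Every YKL-06-102 library lay above every BSJ-03-123 library for each gene, beside 17.6% of all tested genes.

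Of 94 other genes in the families and known partners of the 10, 46 were tested. With YKL-06-102 against DMSO 14 rose, 14 fell and 18 were not called by edgeR, beside 15.6% higher and 21.3% lower among all tested genes, and the median log2 fold change was -0.00042, beside -0.017 over all tested genes. With BSJ-03-123 against DMSO 8 rose, 11 fell and 27 were not called, beside 12.4% higher and 15.7% lower among all tested genes. With palbociclib against DMSO 6 rose, 11 fell and 29 were not called, beside 15.6% higher and 17.6% lower among all tested genes. Without DMSO replicate 2 the counts were 16 higher and 14 lower with YKL-06-102, 6 higher and 11 lower with BSJ-03-123 and 5 higher and 11 lower with palbociclib.

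Among secreted relatives, OLFML3, the only other tested olfactomedin gene, rose to 4.31 ± 0.808 CPM with YKL-06-102, against 0.972 ± 0.246 CPM with DMSO (SD, n = 3 each), a log2 fold change of 2.15 ± 0.23 (SE, edgeR adjusted p = 1.84e-09), close in size to that of OLFML2B. With BSJ-03-123 its log2 fold change against DMSO was 0.77 ± 0.27 (edgeR adjusted p = 0.0269), a call that was lost without DMSO replicate 2 (0.66) or 3 (0.67) and without BSJ-03-123 replicate 2 (0.68) or 3 (0.76). Of the 6 tested relatives of SPARC among matricellular genes, 3 rose with YKL-06-102 and 3 were not called, beside 15.6% of all tested genes called higher. The thrombospondin THBS4 had a log2 fold change of 0.78 ± 0.11 (SE, edgeR adjusted p = 5.83e-07), the secreted adhesion protein TGFBI of 0.67 ± 0.049 (adjusted p = 5.23e-12) and THBS3 of 0.23 ± 0.069 (adjusted p = 0.00927). With BSJ-03-123 the 3 had 0.36, 0.15 and 0.27 and were called, but THBS4 was not called without DMSO replicate 2 (0.23) or without BSJ-03-123 replicate 3 (0.24), and TGFBI was not called without DMSO replicate 1 or 3 or any single BSJ-03-123 library (0.12 to 0.16), nor by DESeq2 (0.15). With palbociclib against DMSO THBS3 had 0.44 (edgeR adjusted p = 7.19e-06) and THBS4 0.32 (adjusted p = 0.0272, lost in 3 of 13 alternatives). TGFBI had 0.095 there (adjusted p = 0.17). THBS3 was lower with YKL-06-102 than with palbociclib, at -0.21 (edgeR adjusted p = 0.0139). SPOCK1, a testican that shares domains with SPARC, had 0.075 (adjusted p = 0.36) with YKL-06-102 against DMSO.

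FRMD4B, the paralog of FRMD4A, rose to 6.29 ± 0.339 CPM with YKL-06-102, against 2.19 ± 0.364 CPM with DMSO (SD, n = 3 each), a log2 fold change of 1.54 ± 0.15 (SE, edgeR adjusted p = 4e-10). With BSJ-03-123 it had 0.57 ± 0.16 (adjusted p = 0.00808), lost without DMSO replicate 2 (0.42) or BSJ-03-123 replicate 2 (0.46). Of the 10 tested genes in the list of FRMD proteins, cytohesins and the PAR complex, 3 rose, 5 fell and 2 were not called with YKL-06-102, against 3, 4 and 3 without DMSO replicate 2, beside 15.6% higher and 21.3% lower among all tested genes. The cytohesins CYTH3 and CYTH2, exchange factors for ARF GTPases, rose by 0.43 and 0.16, while CYTH4 fell, at -0.18, and was higher with BSJ-03-123 at 0.17.

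**Figure D3:**
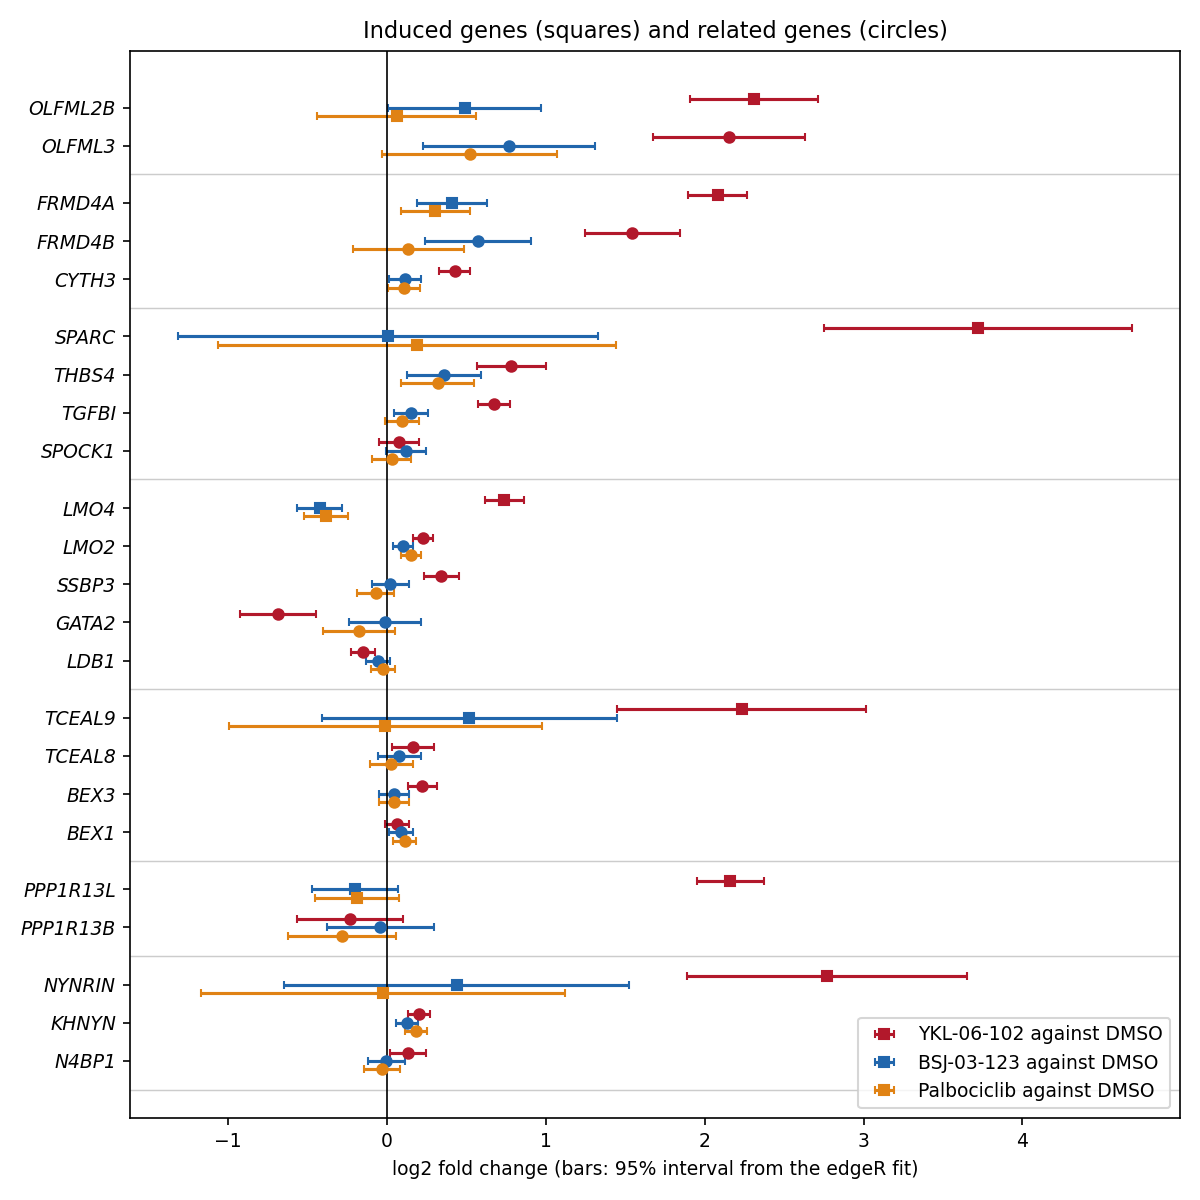
Log2 fold change against DMSO for 7 of the induced genes (squares) and related genes (circles), grouped by family, for the 3 compounds; bars are 95% intervals from the edgeR fit. With YKL-06-102 OLFML3 at 2.15 lies near OLFML2B at 2.31 and FRMD4B at 1.54 lies left of FRMD4A at 2.08, whereas PPP1R13B at -0.23 and LDB1 at -0.15 lie left of 0.

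Of 10 tested members of the LMO and LDB1 list, which holds partners of LMO4, 2 rose and 8 fell with YKL-06-102, beside 15.6% higher and 21.3% lower among all tested genes. With BSJ-03-123 1 rose, 4 fell and 5 were not called, beside 12.4% higher and 15.7% lower among all tested genes. Without DMSO replicate 2 there were 2 higher and 7 lower with YKL-06-102 and 1 higher and 3 lower with BSJ-03-123. LMO2, a LIM-only paralog active in blood cells, rose by 0.23 ± 0.030 (SE, edgeR adjusted p = 6.21e-07) with YKL-06-102. It was also called higher with palbociclib at 0.15, and with BSJ-03-123 at 0.10, a call lost in 3 of 13 alternatives. SSBP3, a protein that stabilizes LDB1, rose by 0.34 with YKL-06-102. SSBP4 and SSBP2, of the same family, fell with YKL-06-102, at -0.46 (edgeR adjusted p = 1.45e-09) and -0.35 (adjusted p = 0.000292). LDB1 itself had 92.5 ± 2.04 CPM with YKL-06-102 and 103 ± 1.05 CPM with DMSO (SD, n = 3 each), a log2 fold change of -0.15 (edgeR adjusted p = 0.00153), and the haematopoietic factor GATA2 fell by 0.69 on the log2 scale (adjusted p = 2.21e-05). RBBP8, a DNA end resection factor that binds LMO4, had -0.96 with YKL-06-102, -1.27 with BSJ-03-123 and -1.36 with palbociclib, and was called in all 3.

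Of 11 tested genes in the ASPP list, the relatives and partners of PPP1R13L, 1 rose, 1 fell and 9 were not called with YKL-06-102, beside 15.6% higher and 21.3% lower among all tested genes, and 2 rose, 3 fell and 6 were not called without DMSO replicate 2. With BSJ-03-123 0 rose, 4 fell and 7 were not called, beside 12.4% higher and 15.7% lower among all tested genes. PPP1R13B, which encodes another ASPP protein, had a log2 fold change of -0.23 (edgeR adjusted p = 0.285) with YKL-06-102. BBC3, which encodes the pro-apoptotic protein PUMA, rose by 0.41 ± 0.091 (SE, adjusted p = 0.000627) with YKL-06-102. CDKN1A had 0.039 (adjusted p = 0.565) with YKL-06-102, and was called lower with BSJ-03-123 at -0.31 and with palbociclib at -0.32. TP73, which encodes a transcription factor, fell, at -1.56 with YKL-06-102, -2.12 with BSJ-03-123 and -2.29 with palbociclib. Of the 3 tested TCEAL and BEX genes, BEX3 rose with YKL-06-102 by 0.22 (adjusted p = 0.000196) and TCEAL8 by 0.16 (adjusted p = 0.0492, lost without DMSO replicate 1 or 2 or YKL-06-102 replicate 1), and BEX1 had 0.064 (adjusted p = 0.178), called at 0.12 without DMSO replicate 2 (adjusted p = 0.00917). Of the 5 tested genes of the NYN domain list, KHNYN, a cofactor of the antiviral protein ZAP, rose by 0.20 (adjusted p = 1.88e-05) with YKL-06-102. KHNYN was also called higher with palbociclib at 0.18 (edgeR adjusted p = 0.000102) and with BSJ-03-123 at 0.12 (adjusted p = 0.00692). ZC3H12C was called at 0.78 with YKL-06-102 (adjusted p = 0.0499), a call lost in 9 of 13 alternatives. The other 4 TMEM132 genes were not tested.

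Within 50 kb of the 10 genes 16 other genes were tested, of which 4 rose, 3 fell and 9 were not called with YKL-06-102, beside 15.6% higher and 21.3% lower among all tested genes, and the median log2 fold change from DMSO was 0.037. With BSJ-03-123 3 rose, 3 fell and 10 were not called, beside 12.4% higher and 15.7% lower among all tested genes. The counts with palbociclib were the same, beside 15.6% and 17.6%. Without DMSO replicate 2 the counts were 5 higher and 3 lower with YKL-06-102, 4 and 3 with BSJ-03-123 and 2 and 3 with palbociclib. The largest change was that of SLC15A3, a lysosomal transporter gene whose exons overlap those of TMEM132A by 76 bases on the opposite strand. It had 13.1 ± 0.883 CPM with YKL-06-102 and 7.09 ± 1.10 CPM with DMSO (SD, n = 3 each), a log2 fold change of 0.86 ± 0.094 (SE). CD3EAP, which overlaps PPP1R13L by 58 exon bases on the opposite strand, fell, at -0.54 ± 0.044 (SE), to 70.7 CPM with YKL-06-102, against 103 CPM with DMSO. TMEM109, next to TMEM132A, had -0.28 with YKL-06-102 and -0.51 with BSJ-03-123, both called. AL157392.3 shares 2429 exon bases with FRMD4A on the opposite strand and had 0.20 ± 0.19 (SE, edgeR adjusted p = 0.439). The library kit keeps strand, but the strand setting of the counting is not given in the sources used here, so the split of reads in these overlaps is uncertain. LINC01140 shares 1168 exon bases with AC093155.3 on the same strand, which had 17 counts in all libraries, and CLMAT3, which overlaps SPARC by 381 exon bases on the opposite strand, had 0 counts. KCNJ5, whose body overlaps C11orf45, had 2 counts in all 12 libraries.

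LINC01140 and LMO4 are adjacent on chromosome 1, on the same strand, with 159 kb between them and 1 annotated gene in the gap, which had 0 counts. That they are neighbours was noticed after their values were known. Both were higher with YKL-06-102, at log2 fold changes of 2.26 and 0.74, but with BSJ-03-123 LINC01140 was called higher at 0.93, a call lost in 7 of 12 alternatives, and LMO4 was called lower at -0.42. The other tested genes within 500 kb of the pair moved less with YKL-06-102. SH3GLB1 had 0.078 (edgeR adjusted p = 0.143), SELENOF -0.027 (adjusted p = 0.614) and HS2ST1, a heparan sulfate sulfotransferase, -0.22 (adjusted p = 0.000445).

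**Figure D4:**
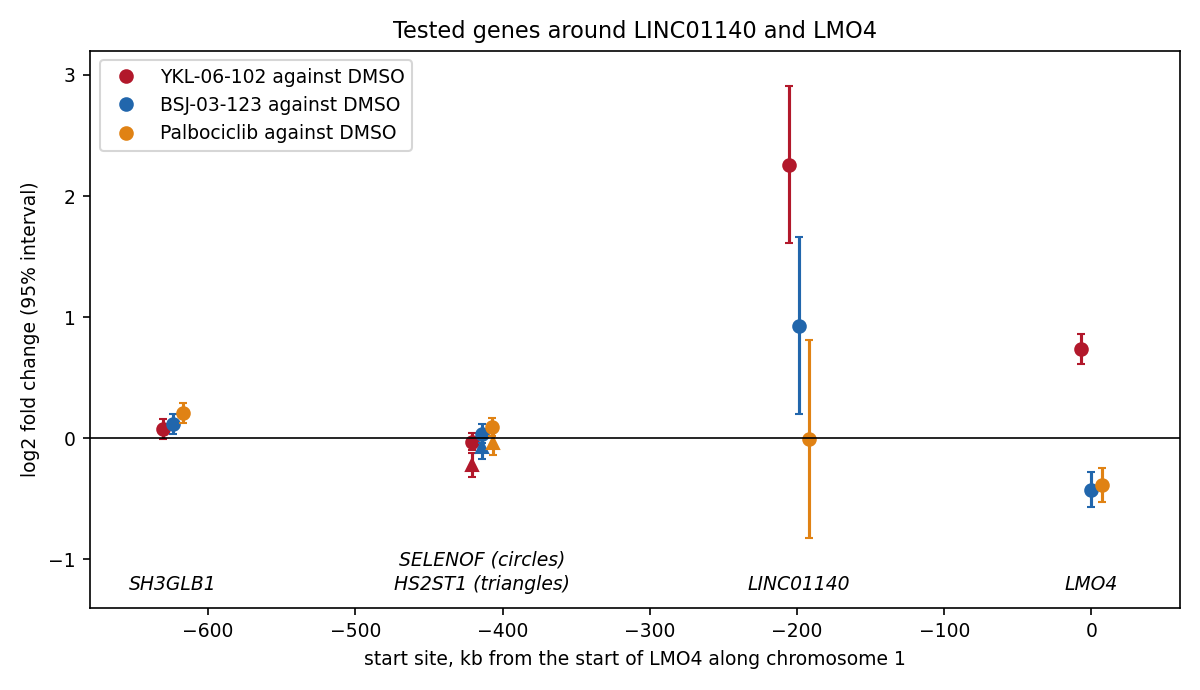
Log2 fold change against DMSO of the 5 tested genes around LINC01140 and LMO4, by the distance of their start from that of LMO4 in kb, with the points of the 3 compounds shifted sideways by 7 kb for legibility; bars are 95% intervals. With YKL-06-102 LINC01140 and LMO4 lie above 0, at 2.26 and 0.74, and SELENOF (circles) and HS2ST1 (triangles) lie at -0.027 and -0.22.

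Across the 12 libraries, the genes with a pattern most like that of SPARC, by Pearson r of log2 CPM among 10365 genes of moderate or high level, were CNN2 (0.986), SLC25A24 (0.984), LIG3 (0.983), FCGRT (0.981) and IGFBP4 (0.980). The 12 libraries fall into separate groups of 3, so these values mostly describe the step between YKL-06-102 and the rest, and no p is given. CNN2, an actin-binding calponin, had 504 ± 7.62 CPM with YKL-06-102, 297 ± 3.77 with BSJ-03-123, 296 ± 10.6 with palbociclib and 297 ± 12.1 with DMSO (SD, n = 3 each). FCGRT, the neonatal Fc receptor, had 78.9 ± 1.77 CPM with YKL-06-102, 22.6 ± 1.99 with BSJ-03-123, 22.1 ± 0.789 with palbociclib and 19.5 ± 2.51 with DMSO. IGFBP4, a secreted binding protein for insulin-like growth factors, had 93.6 ± 0.808 CPM with YKL-06-102, 40.6 ± 1.48 with BSJ-03-123, 36.9 ± 0.456 with palbociclib and 36.2 ± 2.44 with DMSO. SLC25A24, a mitochondrial carrier, and the DNA ligase LIG3 had log2 fold changes of 0.54 and 0.80 with YKL-06-102 against DMSO. The 9 other genes of the group had r values with SPARC of 0.822 for TCEAL9 to 0.978 for PPP1R13L.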

How the data were processed

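The 12 libraries, 3 per group, were made from polyadenylated RNA with a kit that keeps strand, as the labels' protocols state. The values used are the authors' deposited counts, whole numbers of reads per gene without scaling. The submitters' processing notes name Trimmomatic 0.36 for trimming, STAR 2.5.2b for alignment to hg38, and HTSeq. Neither the annotation release nor the strand setting is given in the sources used here.

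Identifiers were named from GENCODE 29 (57447 of 58051), which also gave coordinates and exon lengths. Genes passed edgeR's filterByExpr with a minimum count of 10 and a minimum total of 15. CPM used TMM factors. A single fit of the 12 libraries in edgeR 4.0.16 under R 4.3.3 gave all contrasts (quasi-likelihood test, 2-sided, 8 residual degrees of freedom, Benjamini-Hochberg adjustment over 14214 genes). Fold changes have Wald errors. The test was checked on simulated data. Alternatives were DESeq2 1.42.0, limma-voom 3.58.1, other scalings, no filter, fits of 2 groups only, a replicate block and each library left out. The genes, family lists, marker lists and motifs were chosen with earlier results of these data known. Besides the 10 genes, the text names up to 3 genes of smallest p in each family list and those called with BSJ-03-123. It also names neighbours within 50 kb or overlapping, and the 5 genes most like SPARC. A few further list members (SPOCK1, PPP1R13B, LDB1, GATA2, SSBP3, BEX1, CYTH2) and the genes within 500 kb of LINC01140 and LMO4 were named after their values were seen. Some genes that the rule would allow are left unnamed, and 1 gene of the ASPP list is not reported here.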

Additional observations from a re-analysis of the deposited data

How the results depend on the processing

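The count of genes called in BSJ-03-123 against palbociclib, 22, was 43 (38 higher, 5 lower) with DESeq2, 64 (42 higher, 22 lower) with no filter on low counts, 75 (61 higher, 14 lower) in the fit of these 2 groups only, and 3 to 14 with a library left out (3 without palbociclib replicate 1, 5 without replicate 2 of either group). The cause was not tested. The other 5 comparisons stayed within 1.5 times of their counts. With library totals in place of TMM, the calls against DMSO split 2875 higher and 2425 lower for YKL-06-102 (2215 and 3034 with TMM), 2852 and 1766 for BSJ-03-123 (1763 and 2234) and 3392 and 1950 for palbociclib (2224 and 2507), while LMO4 stayed called lower and FRMD4A higher with BSJ-03-123.

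LMO4 and FRMD4A kept their calls in BSJ-03-123 against DMSO under all 13 alternatives. LINC01140 also lost its call there with no filter (0.94, adjusted p = 0.0743) and in the 2-group fit (0.93, adjusted p = 0.0736), and DESeq2 gave it no adjusted p (unadjusted p = 0.0357). None of the sign changes was in a called value. SPARC in BSJ-03-123 against DMSO had -0.047 with limma-voom, -1.0e-04 with the replicate block, and -0.38 to 0.17 with a library left out (-0.11 without DMSO replicate 1, -0.047 without DMSO replicate 2, -0.38 without BSJ-03-123 replicate 3). In BSJ-03-123 against palbociclib, leaving out a library gave -0.56 to 0.019 for SPARC (above 0 without palbociclib replicate 3), -0.17 to 0.21 for TMEM132A, -0.12 to 0.069 for PPP1R13L and -0.097 to 0.050 for LMO4 (above 0 without palbociclib replicate 3), and limma-voom gave 0.019 for TMEM132A.

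The labels share replicate numbers across groups. Only 2 of 18 same-number pairs had deviations correlated above 0.1 (r from -0.162 to 0.229, against -0.21 to 0.184 for other pairs). However, 7 of 12 libraries correlated best with a library of their own number. Whether the numbers pair the samples is not settled by these values, and the main fit did not use them. With the replicate block, LINC01140 in BSJ-03-123 against DMSO had 0.93 (adjusted p = 0.0529), and the count for BSJ-03-123 against palbociclib was 26. Counts of 2 to 15 per library limit SPARC, NYNRIN, TMEM132A, TCEAL9 and C11orf45 outside the YKL-06-102 group.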
